A study of Mus musculus with 12 samples.

Results

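A set of 9 genes of bone formation, chosen by name, were followed in the blood of injured mice. The set is Runx2, Sp7, Alpl, Spp1, Ibsp, Dlx5, Msx2, Tnfrsf11b and Phex, 9 of the 37583 genes in the table of deposited values. They occupy 10 rows, because 2 rows carry the name Runx2. Of the 9 genes, 6 had reads in at least 1 library and 3 (Runx2, Spp1 and Tnfrsf11b) passed the filter on low values, so only these 3 entered the tests. The mice were wild type and all had a combined burn and tenotomy, the cutting of a tendon, an injury used to provoke bone formation in soft tissue (heterotopic ossification). Whole blood was enriched on the iChip, a microfluidic sorter, and the enriched material, labelled as a mixture of cMPCs (circulating mesenchymal progenitor cells) and blood cells, was sequenced as total RNA. There were 4 libraries at each of 3 times after the injury, called 6h, Day1 and Day7. The labels state neither strain nor age, nor whether replicates came from separate animals, so the p-values measure only the spread between these libraries, which may be technical. No uninjured animals were analysed here, and every group carries the same injury and the same enrichment.

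In bone, Runx2 is the transcription factor that commits mesenchymal cells to the osteoblast lineage, and Sp7 (osterix) acts downstream of it. Dlx5 and Msx2 are homeodomain factors of the same programme. Osteoblasts then lay down a matrix that contains the acidic phosphoproteins osteopontin (Spp1) and bone sialoprotein (Ibsp), and tissue-nonspecific alkaline phosphatase (Alpl) frees phosphate so that the matrix can mineralise. Phex is an endopeptidase of osteoblasts and osteocytes that takes part in phosphate handling. Osteoprotegerin (Tnfrsf11b) is a secreted decoy receptor that binds RANKL and so restrains osteoclasts. Several of these genes also have roles outside bone: osteopontin is made by activated macrophages and many epithelia, Runx2 is made in thymocytes and hypertrophic chondrocytes, and Ibsp and Alpl are made by hypertrophic chondrocytes as well as by osteoblasts.

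Promoter sequence was looked up because Runx2 binds a short core with the letters TGTGGT, which reads on the other strand as ACCACA, and could be compared with the genes of its own programme. RefSeq promoter entries (GRCm38.p6, 250 bases ahead of the start) were found for 6 of the 9 genes, 8 promoters in all. The core was present on either strand in 2 of the 8, one of Runx2 itself and one of Spp1, against 14.05% of 32851 mouse promoters of the same length. Both are printed 5′ to 3′ on the strand of the gene, with the core in capitals. The Runx2 promoter is chr17:44814628-44814877 on the minus strand, with the core 80 bases ahead of the start, and the Spp1 promoter is chr5:104434861-104435110 on the plus strand, with the core 128 bases ahead of it.
Runx2: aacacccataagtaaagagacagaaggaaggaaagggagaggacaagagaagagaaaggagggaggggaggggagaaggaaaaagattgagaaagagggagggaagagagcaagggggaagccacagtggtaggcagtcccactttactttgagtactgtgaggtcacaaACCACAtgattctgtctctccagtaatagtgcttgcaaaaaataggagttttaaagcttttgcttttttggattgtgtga
Spp1: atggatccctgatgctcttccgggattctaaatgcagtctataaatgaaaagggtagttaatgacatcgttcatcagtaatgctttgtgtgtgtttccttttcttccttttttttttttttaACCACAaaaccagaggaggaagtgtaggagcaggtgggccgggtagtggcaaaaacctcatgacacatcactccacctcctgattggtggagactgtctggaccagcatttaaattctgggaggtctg
The other 6 promoters, 2 of Alpl, 1 of Spp1 and 1 each of Ibsp, Msx2 and Phex, held no such core in this window. A homeodomain core with the letters TAATTG, which reads on the other strand as CAATTA, was found in the promoters of Ibsp and Phex and in 7.17% of all promoters. These matches describe letters and say nothing about binding.

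The deposited values are reads multiplied by a constant for each library, so each value can be turned back into whole reads. One read was worth between 0.0314 and 0.617 units, the libraries held 5098395 to 12379041 reads, and 3 reads, used here as the detection floor, corresponded to 0.0942 to 1.85 units. A gene with 0 reads in all 12 libraries (99797430 reads) is therefore below about 0.0301 RPM (the read count scaled to library size) over the pooled libraries, a limit that covers counting error only. Haemoglobin genes took 16.1% to 70.3% of the reads, genes with reads numbered 7631 to 16647 per library, and the reads of Y-linked genes lay in 5 libraries, all of them 6h or Day1. These were 6h replicates 3 and 4 and Day1 replicates 2, 3 and 4. The sex of the source animals may thus be uneven across the times and cannot be fully told apart from time. Of a list of mesenchymal progenitor and fibroblast genes, Dcn, Cd34 and Ly6a were present, which in a mixture does not assign them to a cell type. Pdgfra reached at most 2.04, Prrx1 at most 6.03 and Pdgfrb at most 7.48. The blood markers Ptprc, Pf4 and the haemoglobins were present. In bulk RNA, fewer cells of a type and less RNA per cell cannot be told apart. A pair of libraries stood apart for the bone genes. 6h replicate 2 held the highest Spp1 value and Day1 replicate 4 held nearly all Ibsp and Alpl, so results are given with and without them.

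The number of libraries with reads differed widely among the 9 genes. Runx2 had reads in 11 of 12 libraries, Spp1 in 9, Tnfrsf11b in 7, Alpl in 3, and Ibsp and Phex in 2 each. With at least 3 reads required, these numbers became 11, 8, 6, 2, 1 and 0. Sp7, Dlx5 and Msx2 had 0 reads in every library. The number of the 9 genes with reads was 1, 3, 3 and 2 in 6h replicates 1 to 4, then 3, 5, 3 and 5 in the Day1 libraries and 2, 2, 2 and 3 in the Day7 libraries. The most complete sets, 5 genes each, were therefore those of Day1 replicates 2 and 4.

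**Figure D1:**
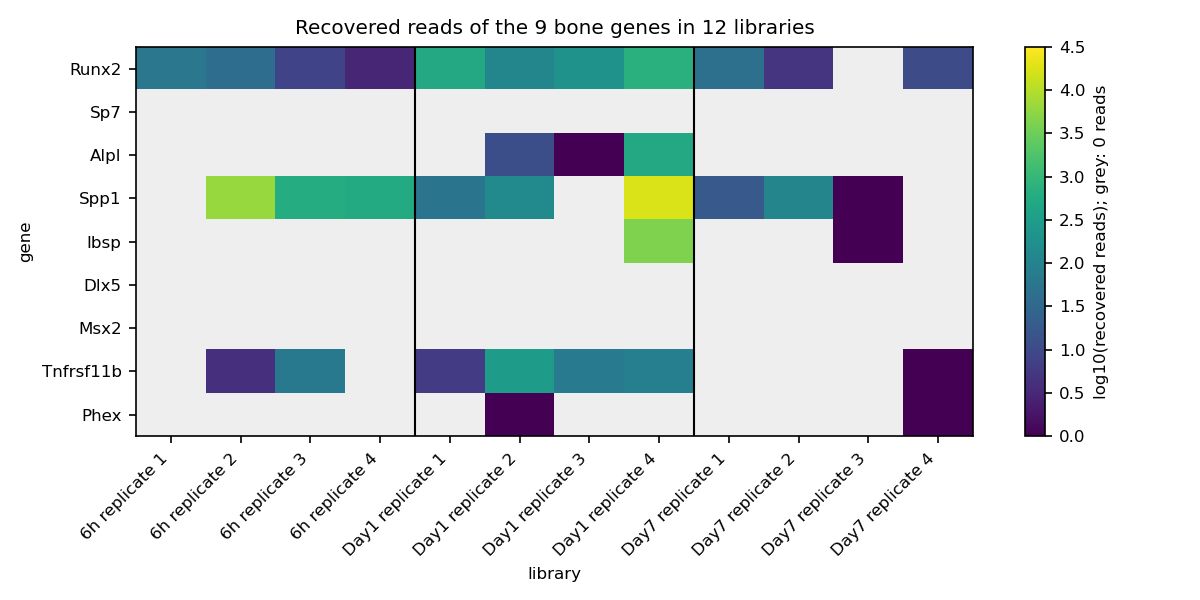
Recovered reads of the 9 bone genes (rows) in the 12 libraries (columns, ordered by time), coloured on a log10 scale, with grey for 0 reads. Runx2 fills 11 of 12 columns, Sp7, Dlx5 and Msx2 fill none, and the brightest Ibsp and Alpl cells lie in Day1 replicate 4.

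Runx2 (ENSMUSG00000039153), the master regulator, was the most widely detected of the set. Its deposited values in replicates 1 to 4 were 11.4, 15.5, 1.93 and 0.180 at 6h (61, 41, 8 and 3 reads), 63.9, 3.67, 14.8 and 28.2 at Day1 (517, 117, 195 and 724 reads), and 3.10, 0.957, 0 and 3.66 at Day7 (45, 5, 0 and 11 reads). All 4 Day1 values lay above all 4 Day7 values, narrowly for Day1 replicate 2, since it stood at 3.674 and the highest Day7 value was 3.658, and the 6h values overlapped both groups. The means were 7.26 ± 7.39 at 6h, 27.6 ± 26.2 at Day1 and 1.93 ± 1.73 at Day7 (SD, n = 4 each). Between Day7 and Day1 the log2 fold change on the log2(value + 1) scale was -2.97 (SE 0.99, 95% interval -5.00 to -0.93), which did not pass the threshold of 0.05 (limma adjusted p = 0.0642, unadjusted p = 0.00598). Between Day1 and 6h it was 1.91 (SE 0.99, interval -0.13 to 3.94, limma adjusted p = 0.467), and between Day7 and 6h it was -1.06 (limma adjusted p = 0.594). The Day7 versus Day1 difference is the bone result nearest to its threshold and it moved across it with the processing: DESeq2 on the recovered reads gave -4.40 (adjusted p = 0.00692) and edgeR gave -3.82 (adjusted p = 0.137), and without Day1 replicate 1, which held the highest Runx2 value, limma gave -2.39 (adjusted p = 0.167). In Day7 replicate 3, where Runx2 had 0 reads, Supt3h, a transcription cofactor gene that overlaps Runx2 in RefSeq (there as Supt3), reached 117, against at most 9.95 in the other 11 libraries. Much of this gap is scaling, since 1 read was worth 0.617 in Day7 replicate 3 and 0.0758 in Day1 replicate 3. In reads Supt3h had 190 in Day7 replicate 3 and at most 93 elsewhere (Day1 replicate 3). No source used here states whether the counting used strand, so reads of overlapping genes on opposite strands may not be separable. The second row named Runx2 (ENSMUSG00000092206) had 0 reads in all 12 libraries.

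Sp7 (ENSMUSG00000060284), the zinc-finger factor that follows Runx2, had 0 reads in the 4 libraries of 6h, the 4 of Day1 and the 4 of Day7. Dlx5 (ENSMUSG00000029755) and Msx2 (ENSMUSG00000021469), homeodomain regulators of osteoblasts, also had 0 reads in all 12. At this depth none of the 3 was detectable at any time, including in the 2 libraries with the most Spp1. Runx2 reads were thus present in 11 libraries that held no read of Sp7.

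Spp1 (ENSMUSG00000029304), osteopontin, a secreted phosphoprotein that binds integrins and CD44, had the most reads of the 9 genes, 25443. The deposited values in replicates 1 to 4 were 0, 2468, 149 and 33.2 at 6h (0, 6517, 616 and 554 reads), 6.55, 4.33, 0 and 679 at Day1 (53, 138, 0 and 17435 reads), and 1.24, 21.2, 0.617 and 0 at Day7 (18, 111, 1 and 0 reads). A library at 0 occurred in each group and the groups overlapped, with 6h replicate 2 and Day1 replicate 4 far above the rest. 6h replicate 2 alone held 73.4% of the summed value. By library share Day1 replicate 4 was the higher of these 2, at 1802 RPM against 1278, so their order depends on the scaling. The means were 662 ± 1205 at 6h, 172 ± 338 at Day1 and 5.78 ± 10.3 at Day7 (SD, n = 4 each). Without 6h replicate 2 the 6h mean was 60.6, and without Day1 replicate 4 the Day1 mean was 3.63. No contrast passed. The log2 fold changes were -2.21 for Day1 versus 6h (SE 1.75, limma adjusted p = 0.656), -2.10 for Day7 versus Day1 (limma adjusted p = 0.434) and -4.32 for Day7 versus 6h (interval -7.92 to -0.71, limma adjusted p = 0.195). The size of each difference depended on single libraries. Without Day1 replicate 4 the Day7 versus Day1 difference shrank to -0.19 (limma adjusted p = 0.951), and without 6h replicate 2 the Day7 versus 6h difference shrank to -2.52 (limma adjusted p = 0.430) and the Day1 versus 6h difference to -0.42 (limma adjusted p = 0.956). In the other direction, without 6h replicate 1, where Spp1 had 0 reads, the Day1 versus 6h difference grew to -4.18 (limma adjusted p = 0.440) and the Day7 versus 6h difference to -6.28 (limma adjusted p = 0.0659), and without Day1 replicate 3, also at 0, the Day7 versus Day1 difference grew to -3.33 (limma adjusted p = 0.2495).

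Macrophages are a known source of osteopontin and their markers stood as follows. In 6h replicate 2, the library with the highest deposited Spp1 value, 4 of the 12 macrophage genes in the table had reads, their summed value was 2.27, and the defining markers Cd68 and Csf1r were at 0. The sum was 215 in Day1 replicate 4 and 2097 in 6h replicate 1, where Spp1 had 0 reads. Over each group the macrophage sum ranged from 2.27 to 2097 (6h), 113 to 215 (Day1) and 17.9 to 317 (Day7).

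**Figure D2:**
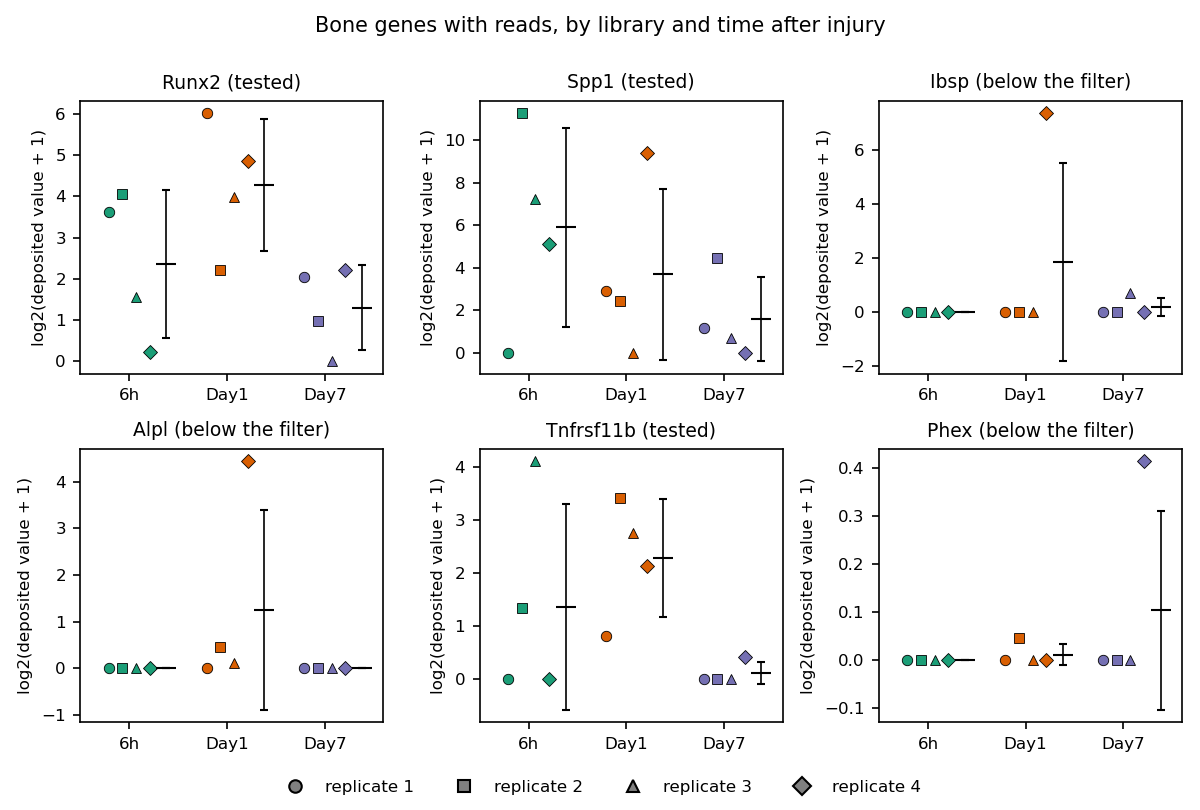
Deposited values of the 6 bone genes with reads, as log2(value + 1), in each of 4 libraries at 6h, Day1 and Day7 (symbols mark replicate numbers), with bars for the mean and SD of the log2 values. Runx2 is higher in every Day1 library than in any Day7 library, by a narrow margin in Day1 replicate 2, whereas Ibsp and Alpl rest on Day1 replicate 4 and Spp1 is highest in 6h replicate 2 and Day1 replicate 4.

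Ibsp (ENSMUSG00000029306), bone sialoprotein, which nucleates mineral in bone and calcifying cartilage, was almost confined to 1 library of the 12. Its deposited values in replicates 1 to 4 were 0, 0, 0 and 0 at 6h, 0, 0, 0 and 165 at Day1 (4228 reads in replicate 4), and 0, 0, 0.617 and 0 at Day7 (1 read in replicate 3). Day1 replicate 4 held 99.6% of the summed value. Over pooled reads Ibsp was at least 515-fold higher at Day1 than at 6h, counted against a floor of 3 reads over the group, and 1308-fold lower at Day7 than at Day1 (1 read against 4228, exact 95% interval 235 to 51690, counting error only). Without Day1 replicate 4 both Day1 and 6h had 0 reads, so the ratio describes that library and not the time. In a fit with no filter on low values the log2 fold change for Day1 versus 6h was 1.84 (limma adjusted p = 0.657).

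Alpl (ENSMUSG00000028766), alkaline phosphatase of bone, liver and kidney, was likewise concentrated in 1 library. It was at 0 in all 4 libraries of 6h, at 0, 0.377, 0.0758 and 20.6 in replicates 1 to 4 of Day1 (0, 12, 1 and 530 reads), and at 0 in all 4 libraries of Day7. Day1 replicate 4 held 97.9% of its summed value. Over pooled reads Alpl was at least 66.2-fold higher at Day1 than at 6h and at least 56.0-fold lower at Day7 than at Day1, and without Day1 replicate 4 these bounds fell to 2.35 and 1.99. With no filter the log2 fold change for Day7 versus Day1 was -1.25 (limma adjusted p = 0.395). Phex (ENSMUSG00000057457) had 1 read in Day1 replicate 2 (0.0314) and 1 in Day7 replicate 4 (0.333), below the floor of 3 reads in both, and 0 reads elsewhere.

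Tnfrsf11b (ENSMUSG00000063727), osteoprotegerin, was detected at 6h and Day1 and hardly at Day7. Its deposited values in replicates 1 to 4 were 0, 1.51, 16.2 and 0 at 6h (0, 4, 67 and 0 reads), 0.742, 9.64, 5.69 and 3.39 at Day1 (6, 307, 75 and 87 reads), and 0, 0, 0 and 0.333 at Day7 (a single read). Every Day1 library lay above every Day7 library, while the 6h libraries spanned the range of Day1. On the deposited scale this separation is not resolved for Day1 replicate 1. Its 0.742 lay below the value of 3 reads in Day7 replicates 3 (1.85) and 4 (0.998). As a library share it stood at 1.14 RPM, against at most 0.110 RPM at Day7. The means were 4.42 ± 7.87 at 6h, 4.86 ± 3.77 at Day1 and 0.0831 ± 0.166 at Day7 (SD, n = 4 each). Over pooled reads the level was 147-fold lower at Day7 than at Day1 (1 read against 475, exact 95% interval 26.3 to 5818, counting error only). The log2 fold change for Day7 versus Day1 was -2.17 (interval -3.85 to -0.49), which did not pass (limma adjusted p = 0.0892). For Day1 versus 6h it was 0.91 (limma adjusted p = 0.702) and for Day7 versus 6h it was -1.25 (limma adjusted p = 0.424). DESeq2 called both Day7 differences (-6.30, adjusted p = 0.0142 against Day1, and -6.53, adjusted p = 0.0144 against 6h), edgeR did not (-5.97, adjusted p = 0.148 against Day1), and a limma term for Y-linked reads reduced the Day7 versus Day1 difference to -0.94 (adjusted p = 0.637). Its ligand RANKL (Tnfsf11) had 2 reads in all, both in Day7 replicate 4, and the receptor RANK (Tnfrsf11a) had 42 reads over 7 libraries.

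Mesothelial markers stood beside Tnfrsf11b as follows. The 6 genes of that list summed to 417, 9.85, 1935 and 1036 in 6h replicates 1 to 4. The Day1 sums were 404, 2303, 1555 and 1761, the Day7 sums were 91.4, 102, 0.617 and 189, and in the Day7 library with the lowest sum 1 of the 6 had reads. At 6h the sums of 417 and 1036 lay in libraries with 0 Tnfrsf11b reads. Their part in the Tnfrsf11b and Runx2 differences was not tested.

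Read against all genes, 0 of the 3 tested bone genes were called in any comparison. Over the table, limma called 0.169% of 11211 genes between Day1 and 6h (19 genes, each higher), 5.78% between Day7 and Day1 (648 genes, of which 245 or 2.19% were higher and 403 or 3.59% lower), 0.883% between Day7 and 6h (99 genes) and 2.55% in the F test over the 3 times (286 genes). At an unadjusted p under 0.05 the bone genes counted 0, 2 (Runx2 and Tnfrsf11b) and 1 (Spp1) in the 3 contrasts and 2 in the F test, whose adjusted p was 0.130 for Runx2, 0.221 for Spp1 and 0.184 for Tnfrsf11b. Between Day7 and Day1 the groups did not overlap, with Day7 lower, in Runx2 and Tnfrsf11b, and the same held for 14.5% of all tested genes (22.9% in either direction). For Tnfrsf11b the limit given above for Day1 replicate 1 applies. For Runx2 the gap between 3.674 in Day1 replicate 2 and 3.658 in Day7 replicate 4 was under the value of 1 read there (0.333). As library shares the lowest Runx2 level at Day1 was 10.4 RPM and the highest at Day7 was 4.28 RPM. No bone gene had groups without overlap in the other 2 contrasts, where 6.40% (Day1 versus 6h) and 5.83% (Day7 versus 6h) of all genes did. The median difference over all genes was 0.52, -0.48 and 0.13 on the log2 scale in the 3 contrasts, on the same scale as the values above. The 3 contrasts share libraries and are not independent of each other.

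**Figure D3:**
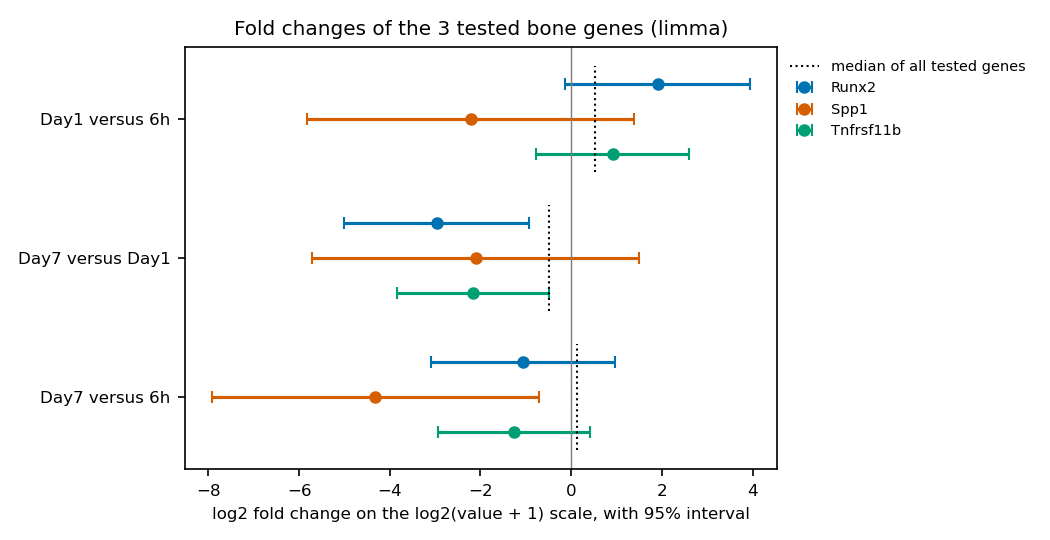
Log2 fold changes of Runx2, Spp1 and Tnfrsf11b (limma, log2(value + 1) scale) with 95% intervals in the 3 contrasts, with a dotted line for the median of all 11211 tested genes. All 3 genes lie below 0 at Day7 versus Day1, and the Runx2 interval of -5.00 to -0.93 lies below the median of -0.48.

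Levels of different genes can be compared only per length, so values were divided by the length of each gene in the deposited table, in kilobases. In Day1 replicate 4, where 5 of the 9 genes had reads, Spp1 stood at 396 units per kilobase, Ibsp at 79.8, Alpl at 5.14, Runx2 at 2.99 and Tnfrsf11b at 1.20. As shares of the library these were 1802 RPM for Spp1, 437 for Ibsp, 74.8 for Runx2 and 54.8 for Alpl. Such shares are not divided by length and do not rank the genes against each other. In 6h replicate 2, the other library rich in osteopontin, Spp1 took 1278 RPM while Ibsp, Alpl and Phex had 0 reads.

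Genes of cartilage accompanied Ibsp and Alpl in Day1 replicate 4. Of the 6 chondrocyte genes listed, Col2a1 (type II collagen, 72.9 units, 1874 reads), Acan (aggrecan, 11.8) and Matn3 (matrilin-3, 15.7) had reads in this library and in no other, Comp had 16 reads in it and 18 in Day7 replicate 2, and Col9a1 was at 0 everywhere. The list summed to 117 in Day1 replicate 4, against 0 to 7.81 in the other 11 libraries. Sox9, the cartilage transcription factor, was the single list member that passed the filter; it read 3.21, 2.83, 7.81 and 16.2 in Day1 replicates 1 to 4 and 0 in every Day7 library, and fell at Day7 (log2 fold change -2.81, limma adjusted p = 0.0331). This call was lost without Day1 replicate 2, 3 or 4 or Day7 replicate 2, 3 or 4, with edgeR and when Y-linked reads were a term. After the values were seen, 3 more genes were picked out: Col10a1, the collagen of hypertrophic cartilage, had 1391 reads in this library and 0 elsewhere, Chad (chondroadherin) had 1176 reads in it and 3 in Day1 replicate 2, and Col9a3 had 509 in it and 46 in Day1 replicate 2. Osteocalcin (Bglap), the late osteoblast product, had 0 reads in Day1 replicate 4, as did Sp7, Dmp1 and Sost. Other matrix and mineralisation genes were high in it: Mgp (675) and Pth1r, the parathyroid hormone receptor (9.81), had their highest values of the 12 libraries there, Bgn stood at 89.9 and Col1a1 at 113, and the list summed to 1899, second to Day1 replicate 2 (2061). The part of cartilage cells in the Ibsp and Alpl values was not tested.

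**Figure D4:**
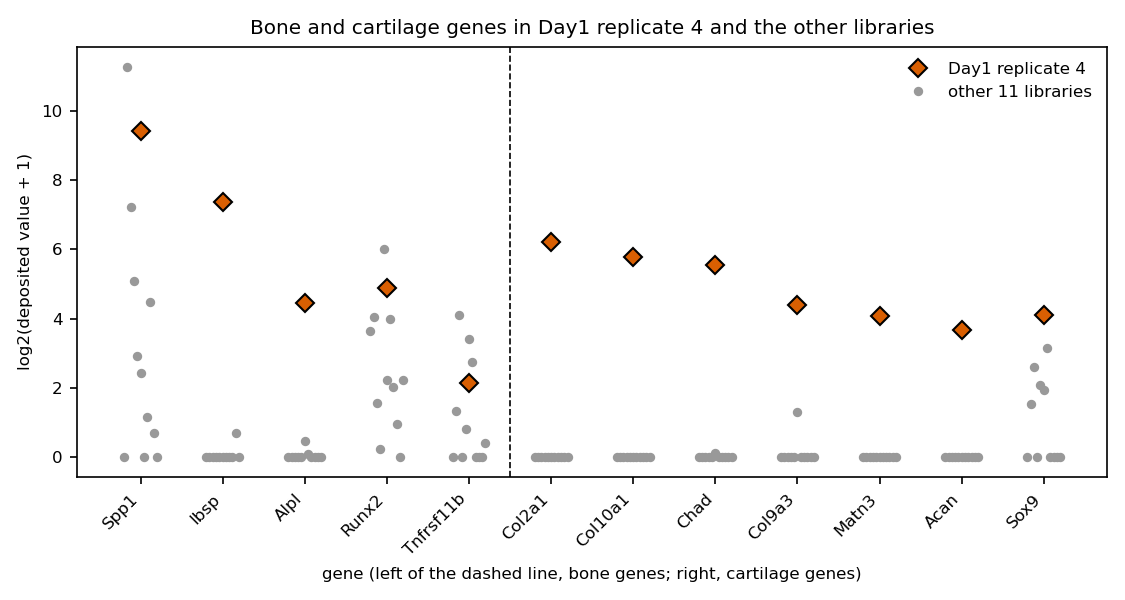
Deposited values, as log2(value + 1), of 5 bone genes and 7 cartilage genes in Day1 replicate 4 (diamonds) and in the other 11 libraries (grey points). Ibsp, Alpl, Col2a1, Col10a1, Chad, Matn3 and Acan are high in Day1 replicate 4 and at or near 0 elsewhere, whereas Runx2, Spp1 and Tnfrsf11b are also present in other libraries.

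The genes whose levels were most like those of each tested bone gene over the 12 libraries were named by Pearson's r on log2(value + 1), as a description without a test, since libraries share their depth and their times. For Runx2 these were Dclre1c (the DNA repair nuclease Artemis, r = 0.91), Zcchc7 (0.89), Cct4 (a chaperonin subunit, 0.86), Luc7l (0.84) and Gcfc1 (0.83). Spp1 was followed most closely by Adcy3 (an adenylyl cyclase, 0.88), Stxbp3a (0.86), Snd1 (0.85), Gtl3 (0.85) and Nxt2 (0.84). Tnfrsf11b was followed by Zfp651 (0.97), Gpr62 (0.96), Dzip1l (0.95), Fzd5 (a Wnt receptor, 0.95) and Nicn1 (0.94). Ranked by Spearman's rho instead, 3 of the 5 stayed in the first 5 for Runx2, 1 of 5 for Spp1 and 3 of 5 for Tnfrsf11b.

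Other regulators of osteoblasts showed no called change. Of such transcription factors listed, 6 passed the filter and 0 were called in any contrast, and Dlx6, like Sp7, Dlx5 and Msx2, had 0 reads. Their median difference between Day7 and Day1 was -0.79, against -0.48 over all genes. Atf4, a stress and amino-acid response factor of osteoblasts and many other cells, averaged 136 ± 108 at Day7 and 108 ± 41.8 at Day1 (SD, n = 4 each). Runx1, the blood-forming relative of Runx2, averaged 39.6 ± 13.9 at Day7 and 9.92 ± 6.00 at Day1 (log2 fold change 2.00, limma adjusted p = 0.107), a difference of opposite sign to that of Runx2. Both pairs of means depend on the scaling, in which 1 read was worth 0.0688 to 0.617 at Day7 and 0.0314 to 0.124 at Day1. In reads, Runx1 overlapped, with 58, 563, 147 and 95 in Day1 replicates 1 to 4 and 468, 253, 87 and 72 at Day7. Atf4 had 471, 3656, 2101 and 2553 reads at Day1 and 1150, 652, 473 and 146 at Day7. Named after their values were seen, Twist1 (-2.44, limma adjusted p = 0.0731) and Foxo1 (-2.39, limma adjusted p = 0.0848) were the 2 members nearest to the threshold, with the same sign as Runx2. Both were called with DESeq2, with array weights and with either read scaling, and over all alternatives 0 to 4 genes of the list were called in this contrast. Over the table the alternatives called 0 to 4063 genes in it. Cbfb, the shared partner of the Runx proteins and also named after its values were seen, averaged 1.15 ± 1.68 at Day7 and 4.63 ± 4.47 at Day1 (-1.37, limma adjusted p = 0.271).

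The wider set of matrix and mineralisation genes held called changes between Day7 and Day1. Of 21 such genes in the table, 18 had reads and 9 were tested: 5 fell, 1 rose and 3 did not pass, with a median of -3.38. Sparc, which binds collagen and mineral, read 35.2, 7.85, 0.617 and 27.9 in Day7 replicates 1 to 4, against 105, 1214, 312 and 678 at Day1 (-5.20, limma adjusted p = 0.0223). The type I collagen chains Col1a2 (-4.98, limma adjusted p = 0.0282) and Col1a1 (-4.00, limma adjusted p = 0.0390) fell, as did Mgp, an inhibitor of calcification (-4.15, limma adjusted p = 0.0282), and Pdpn, a membrane glycoprotein of early osteocytes and of mesothelium and lymphatics (-3.06, limma adjusted p = 0.0453). Ank, the pyrophosphate transporter that restrains mineralisation, rose (3.73, limma adjusted p = 0.0355), with 6.12, 8.80, 129 and 88.5 at Day7 and 2.97, 2.73, 0.758 and 0 at Day1. These 6 calls became 0 without Day1 replicate 2, 3 or 4 or Day7 replicate 2 or 3, 3 without Day7 replicate 4, and 0 with edgeR, with no filter or with a term for Y-linked reads. With values scaled to all reads or to reads outside haemoglobin, the 5 falls were called and the rise of Ank was not. The bone-restricted members had few reads: Dspp, Fgf23 and Mepe had 0, Dmp1 had 1, Sost had 2 and Bglap2 had 3. Ifitm5 had 13 reads in 6h replicate 4 and 6 and 14 in Day1 replicates 1 and 2. Omd, of the same list, had 15 reads over 4 libraries. Bglap had 68 reads, all in 6h replicate 1, where near-identical copies make the assignment uncertain. The genes that fell are made by fibroblasts and other mesenchymal cells as well as by osteoblasts, and beside them 4 of 6 mesothelial markers fell (0 without Day1 replicate 2, 3 or 4 or Day7 replicate 3) and 0 of 9 tested mesenchymal markers were called (5 under either read scaling).

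Osteoclast genes, the counterpart of osteoprotegerin, showed 0 called among 9 tested of 15 in the table, with a median of -0.21 between Day7 and Day1. Csf1, the macrophage colony-stimulating factor that osteoclast precursors need, was named after its values were seen and averaged 0.596 ± 0.812 at Day7 and 6.69 ± 3.90 at Day1 (-2.25, limma adjusted p = 0.0576). The most abundant members were Itgb3 and Acp5, and Calcr and Oscar, markers of mature osteoclasts, had 0 reads. Other osteoclast genes of the list did have reads. Ctsk had 247 over 5 libraries and Dcstamp 326 over 6, both tested, while Ocstamp had 5 and Atp6v0d2 had 1. Ctsk stood at 2.67, 8.57 and 1.79 in Day1 replicates 2 to 4.

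Among the osteopontin receptors, 7 of 9 genes were tested and Itgb1, the integrin beta-1 chain, rose between Day7 and Day1 (2.82, limma adjusted p = 0.0458). It read 334, 504, 421 and 439 in Day7 replicates 1 to 4, against 29.5, 107, 75.3 and 49.6 at Day1. The median of the 7 was 2.28. Cd44 (2.28, limma adjusted p = 0.0942), Itgb3 (2.48, limma adjusted p = 0.112) and Itgb5 (2.40, limma adjusted p = 0.0991) did not pass, nor did Itgav, the alpha chain that pairs with beta-3 and beta-5 (-2.15, limma adjusted p = 0.136), Itga5 (-0.87, limma adjusted p = 0.559) and Itga4 (0.31, limma adjusted p = 0.842). The Itgb1 call was lost without any 1 of the Day1 libraries or of Day7 replicates 2, 3 or 4, under either read scaling, with edgeR and when Y-linked reads were a term. Integrin beta-1 and beta-3 are also platelet proteins, and 4 of 7 platelet genes (Tubb1, Treml1, Ppbp and Gp6) rose in the same contrast, with list sums of 21348 to 36264 in the Day7 libraries and 841 to 5674 in the Day1 libraries. These sums are in deposited units, in which 1 read was worth 0.0688 to 0.617 at Day7 and 0.0314 to 0.124 at Day1. As shares of the library the platelet sums of Day7 and Day1 overlap. The part of platelet genes in the Itgb1 result was not tested. Itga8 had 0 reads. Rapgef3, a cyclic-AMP exchange factor listed as a possible neighbour of a bone gene, was called (-2.89 for Day7 versus Day1, limma adjusted p = 0.0318). In RefSeq it overlaps none of the 9 bone genes, and its distance from them was not measured. The call was lost in 10 of 27 alternatives. Among these were the fits without Day1 replicate 2, 3 or 4 or Day7 replicate 2, 3 or 4.

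The lists of other cell types, which stand beside these results, gave the following calls. Some depended on single libraries: with 1 library left out, the platelet count between Day7 and Day1 ranged from 0 to 7. Between Day7 and Day1 the mesothelial markers Wt1, Krt19, Lrrn4 and Msln fell. Of the 4 tested genes of the biliary or kidney list, 3 (Krt7, Krt19 and Sox9) fell. Krt19 is also on the mesothelial list and Sox9 on the chondrocyte list, so these falls are not separate from those above. The keratinocyte marker Krt14 fell and the neutrophil marker S100a8 rose, a call lost for S100a8 in 18 of 28 alternatives. Of 7 hepatocyte genes 4 rose between Day1 and 6h (Apoh, Ambp, Alb and Apoa1) and 4 between Day7 and 6h (Apoh, Ambp, Alb and Ttr). Of 28 alternatives, the Day1 versus 6h call was lost in 15 each for Alb and Apoa1, 8 for Apoh and 2 for Ambp. The Day7 versus 6h call was lost in 15 for Alb, 11 for Ttr, 4 for Apoh and 1 for Ambp. Between Day7 and 6h the platelet genes Tubb1, Gp9 and Gp6 rose and Krt14 fell. These calls were lost in 13, 19, 10 and 3 of 28 alternatives, in that order. The macrophage list (led by C1qb and C1qc), the mesenchymal list (Dcn and Col3a1), the erythroid list (Hbb-b1 and Hba-a1), the endothelial list (Vwf and Pecam1) and the leukocyte list (Cd79a and Ptprc) had 0 called members in each contrast in limma as reported. Under the alternatives the mesenchymal count between Day7 and Day1 was 0 to 5 and moved from 0 in 12 of 28, the erythroid count was 0 to 4 and the endothelial count 0 to 2. The defining keratinocyte genes Krt1, Krt5 and Lor and the defining kidney genes Umod, Slc12a1 and Cdh16 had 0 reads in all 12 libraries.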

How the data were processed

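Total RNA libraries of iChip-enriched blood, 12 in all, were grouped by the time in the sample titles. The submitters' processing notes name the genome build mm9 and the tools STAR 2.7.10 and HTSeq 2.0.1. No source used here states the annotation or the scaling step. The authors deposited 1 signal value per gene and library under the name CPM, but the columns sum to 351981 to 5611150, so it is not plain CPM as the planned design assumed. Gene length is a deposited column. All but a few values (99.9998% whole within 0.001 reads) were multiples of the value of 1 read, so reads could be recovered (5098395 to 12379041 per library), and 0 columns belonged to other samples.

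The 11211 genes that reached a value of 1 in 4 or more libraries were fitted with limma 3.58.1 (R 4.3.3, trended variance) on log2(value + 1), in 1 fit over all 12 libraries, with Benjamini-Hochberg adjustment over all genes and a threshold of 0.05. The log2 values were computed from the deposited signal, and fold changes on this scale understate those of low genes. The edgeR 4.0.16 quasi-likelihood test and DESeq2 1.42.0 on recovered reads, other scalings, filters and pseudocounts, array weights, the replicate number as a block, a term for Y-linked reads and each library left out were alternatives. Leaving out 6h replicate 2 and Day1 replicate 4 together was added after seeing the data. The script was tested on simulated data. Ratios of pooled reads weigh libraries by depth, and floors and intervals cover counting error only, since reads without molecular identifiers are not independent molecules.

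All 9 bone genes are given in every library. For each tested one, the 5 genes of highest r are named, and of each gene list the called members, or else its 2 most abundant. The members and lists were chosen with earlier results of these data known. RefSeq names and promoters of GRCm38.p6 were matched by symbol, 6 of 9 members with an entry, and Sp7, Dlx5 and Tnfrsf11b without one. No coordinates of mm9 were used.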

Additional observations from a re-analysis of the deposited data

Results flagged for a closer look

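Within a group of 4 libraries, 1 library stood far from the others in 10 of the 14 pairs of a bone gene and a time that had any spread, which is a description and no test. Chance flags about 1 in 20 groups of evenly spread values, a rate that does not hold for values with many zeros. In 5 of the 10 the other 3 libraries were at 0, so that any read flags the group, and in 4 of these the distant value was a single read.

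Spp1 was flagged at all 3 times: 6h replicate 2 stood at 2468, Day1 replicate 4 at 679 and Day7 replicate 2 at 21.2. Day1 replicate 4 was also far above its group in Ibsp (165, 4228 reads) and Alpl (20.6, 530 reads). Tnfrsf11b reached 16.2 in 6h replicate 3 (67 reads), with the other 3 libraries of that time between 0 and 1.51. The single reads were those of Ibsp in Day7 replicate 3 (0.617), Phex in Day1 replicate 2 (0.0314), Phex in Day7 replicate 4 (0.333) and Tnfrsf11b in Day7 replicate 4 (0.333). No Runx2 library was flagged at any time.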

How the results depend on the processing

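Of 241 recomputed fold changes of Runx2, Spp1 and Tnfrsf11b with a p, 225 kept their direction and side of the threshold, 14 passed where the reported fit did not, and 2 turned direction, both for Tnfrsf11b at Day1 versus 6h (-0.19 with edgeR and -0.23 with DESeq2, against 0.91; adjusted p = 0.992 and 0.981). The cause was not tested. Between Day7 and Day1, 2 bone genes (Runx2 and Tnfrsf11b) were called with values scaled to all reads, scaled to reads outside haemoglobin, with DESeq2 and with array weights, and 1 (Runx2) in a fit of the 2 groups; leaving out 1 library gave 0 to 1 (Runx2 without 6h replicate 1 or 4, Tnfrsf11b without 6h replicate 3). The 6h libraries are outside this contrast, so leaving 1 out changes the shared spread, the filter and the adjustment but not the fold change. Over the table DESeq2 called 1776 of 11211 genes in this contrast, against 648 reported, and the highest count of any alternative was 4063. Scaling to all reads or to reads outside haemoglobin moved the median of all genes to -1.76 and -1.78. Scaling to all reads called 1 (Runx2) at Day1 versus 6h, with a median of 1.55 over all genes. The highest count over the table of any alternative in that contrast was 1270, against 19 reported. DESeq2 called 1 (Tnfrsf11b) at Day7 versus 6h, where it called 1075 genes over the table, against 99 reported. In the F test 2 were called with either read scaling, 1 (Runx2) with DESeq2 and 1 (Tnfrsf11b) with array weights. Over the table this test called 876 genes with DESeq2 and at most 3014 in any alternative, against 286 reported. For Runx2 at Day7 versus Day1 the fold change ranged from -4.98 to -2.05 and the adjusted p from 0.00569 to 0.167; for Tnfrsf11b the adjusted p ranged from 0.0115 to 0.637. DESeq2 gave no p for Spp1 in the 3 contrasts. Without 6h replicate 2 and Day1 replicate 4 together 0 bone genes were called, and Tnfrsf11b no longer passed the filter.

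Over the table, calls between Day7 and Day1 ranged from 0 to 4063 (648 reported), between Day7 and 6h from 0 to 1075 (99) and between Day1 and 6h from 0 to 1270 (19); edgeR called 1, 84 and 9, and DESeq2 called 1776, 1075 and 197. Leaving out 1 library gave 3 to 1185, 3 to 695 and 2 to 64. In the F test they ranged from 10 to 3014 (286).

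With the replicate number as a block, 0 bone genes were called in each contrast and in the F test (Runx2 at Day7 versus Day1, adjusted p = 0.0645), the Itgb1 and Pdpn calls were lost (adjusted p = 0.0543 and 0.0509), Col3a1 at Day7 versus Day1 and Pecam1 at Day7 versus 6h were gained, and the table gave 571, 156 and 45 calls. The numbers are shared by the titles only: same-numbered libraries deviated together with r of -0.23 to 0.12, 1 of 12 pairs was over 0.1 and 1 of 12 libraries matched its own number best, so the block was not used.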

Other observations

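The bone genes in 2 libraries were accompanied by other genes of 1 library each, listed as genes with at least 50 reads and at least 90% of their summed value in that library; this rule was chosen after the values were seen. In Day1 replicate 4, 50 genes met it, Ibsp and Alpl among them, and the 4 with the most reads were Ibsp, Col2a1, Col10a1 and Chad. Mmp13, the collagenase of hypertrophic cartilage, was outside that set: it read 2.30 in Day1 replicate 4 and 10.5 and 6.98 in Day7 replicates 3 and 4, and Ihh, the signal of prehypertrophic chondrocytes, had 0 reads there. In 6h replicate 2, 16 genes met the rule, among them Tnfaip6, a hyaluronan-matrix protein (125 units, 331 reads), Lhcgr, the luteinising hormone receptor (82.2 units, 217 reads), Lox, a collagen cross-linking oxidase (60.2 units, 159 reads), and Prss35 (173 reads). The same library read 602 for Sparc and 0.379 for each of the type I collagen chains Col1a1 and Col1a2.

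In 6h replicate 1, which had 0 reads of Spp1 and 61 of Runx2, 93 genes met the rule. The list included the thymic genes Tbata (5113 reads), Ccl25 (1804 reads), Prss16 (780 reads) and Pax1 (553 reads) and the thymocyte genes Cd8a (1039 reads), Cd8b1 (1118 reads) and Dntt (680 reads). Without this library the Runx2 difference between Day7 and Day1 had a limma adjusted p of 0.0481, against 0.0642 with it. The library is outside that contrast, so leaving it out does not change the fold change. It changes only the shared spread, the filter and the adjustment. These genes were named after their values were seen, and their part in the Runx2 value of that library was not tested.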
